A study of Homo sapiens with 6 samples.

Results

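The genes described here encode aminoacyl-tRNA synthetases, the enzymes that load amino acids onto transfer RNAs. They were taken by gene symbol and comprise 35 of the 25662 genes in the table, of which 19 encode cytosolic and 16 mitochondrial enzymes (names ending in 2). RNA was sequenced from cells of HCT116, an established line from a human colorectal carcinoma, transfected with siRNA against RRN3 (RRN3 siRNA, n = 3) or with a control siRNA (n = 3). RRN3, also called TIF-IA, recruits RNA polymerase I to ribosomal RNA genes, and the comparison asks which transcripts differ when it is depleted. All 6 libraries came from this line grown in McCoy's 5a medium with serum, and its design text calls the 3 samples of a group biological replicates. The siRNA sequences and doses, and the time between transfection and lysis, do not appear in the sources used here.

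Each synthetase joins an amino acid to its matching tRNA, and the fold of the catalytic domain puts it in class I or class II. Several cytosolic synthetases are held in a multisynthetase complex by the scaffold proteins AIMP1, AIMP2 and EEF1E1, while the mitochondrial enzymes are made from separate nuclear genes and imported. Uncharged tRNA activates the kinase GCN2 (EIF2AK4), which phosphorylates eIF2 alpha and raises translation of the transcription factor ATF4. ATF4 in turn activates genes of amino acid synthesis and transport together with many cytosolic synthetase genes.

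Values are TPM, the share of a library's transcripts that belongs to a gene, scaled for its length. Depth of sequencing is unknown from TPM, and no counting interval can be given. RRN3, the targeted gene, had 2.70, 1.22 and 0.925 TPM in RRN3 siRNA libraries, against 20.9, 14.7 and 14.1 TPM in control siRNA libraries. RRN3 fell by 2.79 on the log2 scale (SE 0.27, limma adjusted p = 0.000301). An exact permutation test, two-sided, gave p = 0.1, which is the lowest value that groups of 3 can reach. The epithelial markers EPCAM and CDH1 averaged 134 and 41.8 TPM in RRN3 siRNA libraries and 124 and 33.3 TPM in control siRNA libraries, whereas KRT20, VIL1, LGALS4 and CEACAM5 stayed below 1 TPM in every library. CDX2 was lower, averaging 12.8 TPM in RRN3 siRNA cells and 16.1 TPM in control siRNA cells, without overlap. It did not pass the test (limma adjusted p = 0.101). The 10 measured markers of this list summed to 12358 to 13511 TPM in RRN3 siRNA libraries and 5435 to 6491 TPM in control siRNA libraries. Nearly all of that sum was keratin, of which KRT8 averaged 6409 TPM in RRN3 siRNA cells and 2798 TPM in control siRNA cells, KRT18 3174 and 1389 TPM, and KRT19 3162 and 1573 TPM, and all 3 rose (limma adjusted p = 0.000134, 8.83e-05 and 0.000156). Of 5 immune cell markers CD3E was listed at 0, and their summed level was 1.53 to 1.64 TPM in RRN3 siRNA libraries and 8.15 to 9.69 TPM in control siRNA libraries, nearly all of it CD68 (0.737 and 8.29 TPM on average). The 6 fibroblast markers summed to 6.90 to 7.80 TPM in RRN3 siRNA libraries and 8.65 to 10.8 TPM in control siRNA libraries, with COL1A2 and DCN listed at 0, and the 4 endothelial markers to at most 0.201 and 0.683 TPM. The part of these markers in the synthetase values was not tested.

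Both libraries numbered 1 stood apart from the others of their group. Over all tested genes, deviations from the group mean correlated with GC content in both (Spearman -0.578 for RRN3 siRNA and -0.549 for control siRNA). For libraries 2 and 3 the values were 0.267 and 0.552 with RRN3 siRNA, and 0.541 and 0.124 with control siRNA. Deviations within a group cancel out, so these values are not independent. Among the synthetases, transcripts of 9 genes were more than 0.3 log2 units higher in library 1 than in the mean of libraries 2 and 3 in both groups. These were EPRS1, FARSB, IARS1, LARS1, NARS1, RARS1 and TARS1 in the cytosolic set and IARS2 and RARS2 in the mitochondrial set. The GC content of their longest transcripts was 41.4 to 44.3%, with a median of 43.2%, against 42.4 to 62.6% and a median of 52.1% for the other members. LARS1 shows the size of this difference, with 29.1, 13.8 and 10.0 TPM in RRN3 siRNA libraries and 26.6, 18.4 and 17.7 TPM in control siRNA libraries. The spread within a group is wide for these 9 members, and their values with both libraries numbered 1 left out are given below where the call differs. The share of all genes tested with a library 1 excess of this size was not computed. Not every GC-poor member shared the excess. WARS2, at 42.4% GC, had a library 1 excess of 0.04 log2 units in the RRN3 siRNA group and -0.11 in the control siRNA group.

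**Figure D1:**
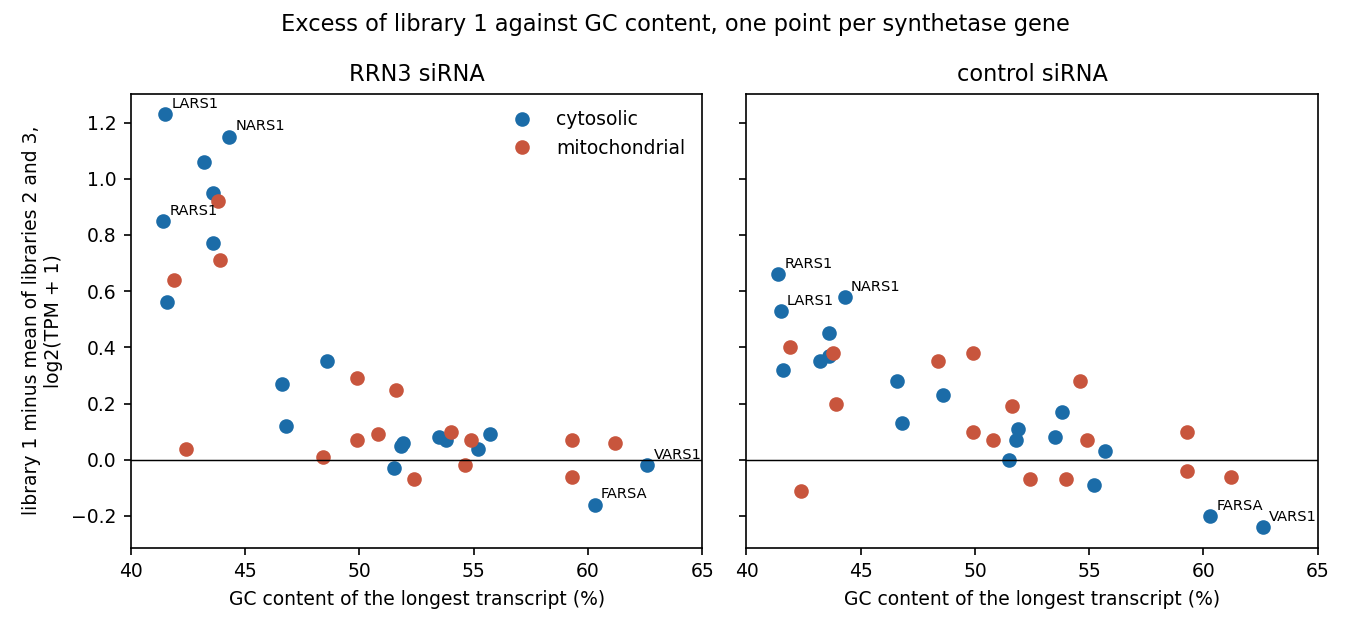
Excess of library 1 over the mean of libraries 2 and 3 (y axis, log2 units) against the GC content of the longest transcript (x axis, percent), with 1 point per synthetase gene, for RRN3 siRNA on the left and control siRNA on the right. Members with a GC content below 45% lie mostly above 0 in both panels, and GC-rich members such as FARSA lie near or below 0.

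The synthetase transcripts that differed between the groups moved in both directions. Of the 35 members, all of which passed the filter on low values, SARS1, HARS1 and MARS2 rose in RRN3 siRNA cells and AARS1, YARS1, VARS2 and QARS1 fell. The other 28 did not pass the test. The 7 called members are 20% of the set, against 30.3% of the 12157 genes tested. Risen members made up 8.57%, beside 11.2% of all genes tested, and fallen members 11.4%, beside 19%. The groups did not overlap for 10 members (28.6%, against 44.8% of all genes tested). Of these, 6 were higher in RRN3 siRNA libraries (17.1%, against 17.9%) and 4 were lower (11.4%, against 26.9%). The median log2 change of the members was -0.01 and the median absolute change 0.13, compared with -0.05 and 0.29 over all genes tested. Whether these shares and medians differ from those of all genes was not tested, and expression level was not matched. Over all genes 1367 rose and 2312 fell, a split that became 2017 and 2115 with median-of-ratios scaling, 2205 and 2284 with quantile normalization, and 2705 and 2661 with the GC trend of each library removed, where the members split into 7 risen and 4 fallen.

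**Figure D2:**
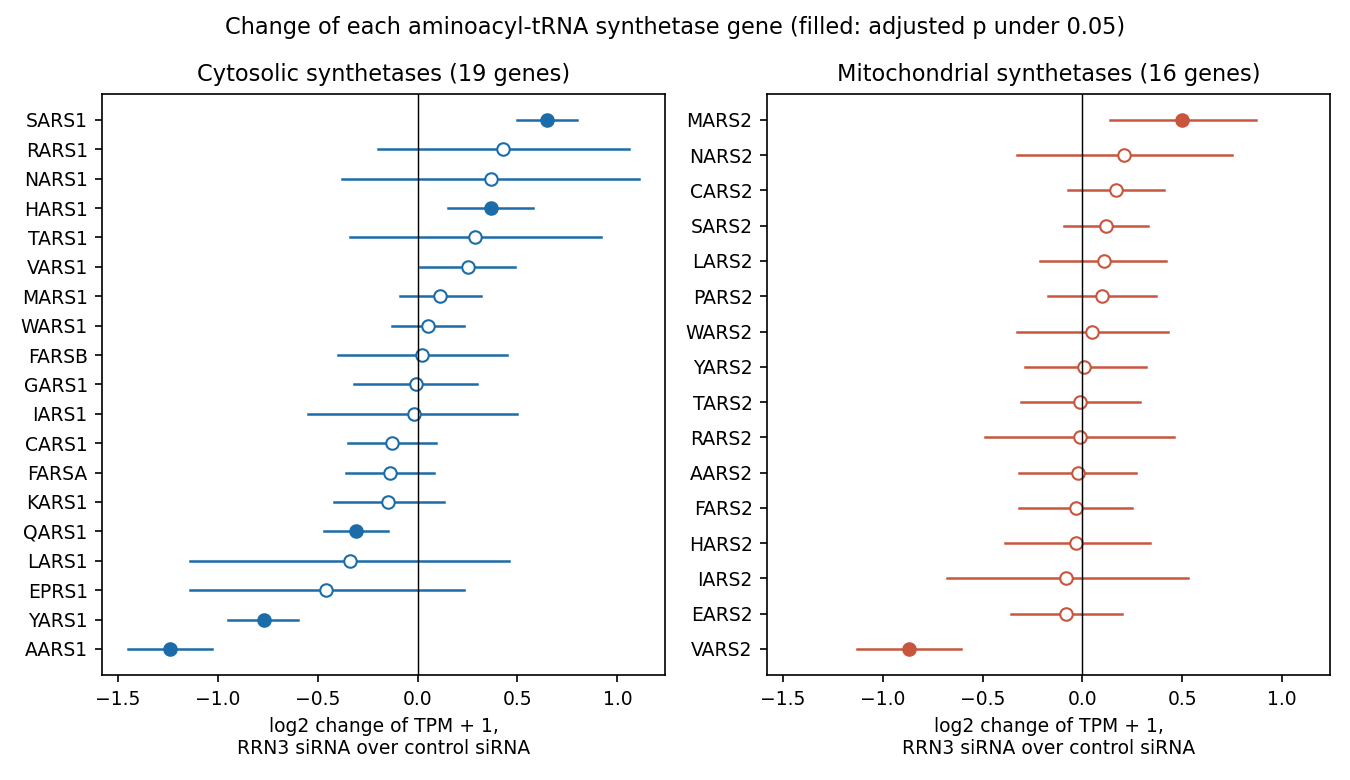
Log2 change of each of the 35 synthetase genes, RRN3 siRNA over control siRNA (x axis, on the log2(TPM + 1) scale), with 95% confidence intervals, for the 19 cytosolic and the 16 mitochondrial genes. AARS1 lies farthest below 0 at -1.24 and SARS1 farthest above at 0.65, and most mitochondrial genes lie close to 0.

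As a class, neither cytosolic nor mitochondrial synthetase transcripts were separated between the groups in their summed level. The 19 cytosolic transcripts summed to 1842, 1661 and 1599 TPM in RRN3 siRNA libraries and to 1831, 1823 and 1663 TPM in control siRNA libraries, so the groups overlapped. The 16 mitochondrial transcripts summed to 325, 281 and 263 TPM in RRN3 siRNA libraries and to 310.4, 289 and 262 TPM in control siRNA libraries, again with overlap. The cytosolic sum was 5.89 ± 0.203 times the mitochondrial sum in RRN3 siRNA libraries and 6.18 ± 0.244 times in control siRNA libraries (SD, n = 3 each). In these bulk samples fewer cells of a type and less RNA per cell cannot be told apart. Among cytosolic genes 2 rose (10.5%) and 3 fell (15.8%), with a median absolute log2 change of 0.29. Among mitochondrial genes 1 rose and 1 fell (6.25% each), with a median absolute change of 0.08. Of all genes tested 11.2% rose and 19% fell, with a median absolute change of 0.29. A cytosolic gene had a median of 83.7 TPM in RRN3 siRNA cells and 84.3 TPM in control siRNA cells, and a mitochondrial gene 15.3 and 15.5 TPM. The highest level of all members was that of QARS1 and the lowest that of WARS2, at 2.17 ± 0.380 TPM in RRN3 siRNA cells and 2.05 ± 0.281 TPM in control siRNA cells (SD, n = 3 each). Class I members numbered 18, of which 1 rose (5.56%, against 11.2% of all genes tested) and 3 fell (16.7%, against 19%). Class II members numbered 16, of which 2 rose (12.5%) and 1 fell (6.25%). Counts this small do not tell the classes apart. EPRS1, which joins a class I and a class II enzyme in a single protein, did not pass the test.

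AARS1, the cytosolic alanyl-tRNA synthetase, fell the most. Its level was 55.2, 51.5 and 53.0 TPM in RRN3 siRNA libraries, against 132, 137 and 114 TPM in control siRNA libraries. Every RRN3 siRNA library lay below every control siRNA library, and the mean was 41.7% of the control mean. AARS1 fell by 1.24 on the log2 scale (SE 0.09, limma adjusted p = 8.60e-05). Its gene (ENSG00000090861) spans 70252295 to 70289543 of chromosome 16 in GRCh38, minus strand. AARS2, its mitochondrial partner, had 6.18, 5.62 and 6.05 TPM in RRN3 siRNA libraries and 6.41, 5.90 and 5.90 TPM in control siRNA libraries, and these groups overlapped (log2 change -0.02, 95% interval -0.32 to 0.27).

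YARS1, which charges tRNA with tyrosine in the cytosol, had 87.1, 84.2 and 79.8 TPM in RRN3 siRNA libraries, against 145, 149.9 and 136 TPM in control siRNA libraries. The groups were well separated, with a mean of 83.7 ± 3.66 TPM in RRN3 siRNA cells and 144 ± 7.19 TPM in control siRNA cells (SD, n = 3 each). YARS1 fell by 0.77 on the log2 scale (SE 0.08, limma adjusted p = 0.000318). The gene (ENSG00000134684; chromosome 1, 32775237 to 32818153, minus strand) shares 396 exonic bases with S100PBP on the opposite strand. S100PBP averaged 7.35 TPM in RRN3 siRNA cells and 11.9 TPM in control siRNA cells and did not pass the test (limma adjusted p = 0.0851). It passed as lower in RRN3 siRNA cells, the direction of YARS1, with the GC trend removed (limma adjusted p = 0.0153), median-of-ratios scaling (0.0377) or quantile normalization (0.0422), without RRN3 siRNA library 1 (0.00294), and with both libraries numbered 1 left out (0.000317). The sources used here do not say whether counting used strand, so reads of such neighbours cannot be told apart. YARS2 had 20.1, 21.7 and 16.8 TPM in RRN3 siRNA libraries and 20.2, 17.2 and 20.4 TPM in control siRNA libraries, with overlapping groups.

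QARS1, the glutaminyl-tRNA synthetase, has no mitochondrial counterpart, since mitochondria make their glutaminyl-tRNA by amidation of a glutamate already on the tRNA. It had 266, 266 and 252 TPM in RRN3 siRNA libraries, against 311, 343 and 317 TPM in control siRNA libraries, without overlap. QARS1 (ENSG00000172053; minus strand of chromosome 3, 49095932 to 49105135) fell by 0.31 (SE 0.07) on the log2 scale, with a limma adjusted p of 0.0126. The call ended with median-of-ratios scaling (limma adjusted p = 0.188), without a variance trend (0.053), and without RRN3 siRNA library 2 (0.0592) or library 3 (0.0532).

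SARS1 and HARS1 were the cytosolic members that rose. SARS1, which charges serine tRNAs and the selenocysteine tRNA, had 174, 176 and 181 TPM in RRN3 siRNA libraries, against 112, 115 and 109.9 TPM in control siRNA libraries. All RRN3 siRNA libraries lay above all control siRNA libraries, and the difference of 0.65 log2 units (SE 0.07) had a limma adjusted p of 0.000349. SARS1 (ENSG00000031698) lies on the plus strand of chromosome 1 at 109213918 to 109238169. Its partner SARS2 had 31.3, 31.6 and 28.6 TPM in RRN3 siRNA libraries and 27.2, 28.7 and 28.2 TPM in control siRNA libraries, with overlap. SARS2 did not pass the test, but did so with the GC trend removed (limma adjusted p = 0.015), and it shares 1492 exonic bases with a same-strand readthrough gene. SARS2 also shares 349 exonic bases with MRPS12 on the opposite strand. MRPS12 averaged 121 TPM in RRN3 siRNA cells and 99.8 TPM in control siRNA cells, without overlap. It did not pass the test (limma adjusted p = 0.0721).

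HARS1, which charges histidine tRNA, had 102, 94.3 and 93.6 TPM in RRN3 siRNA libraries, against 79.6, 78.5 and 66.9 TPM in control siRNA libraries. The groups did not overlap, although library 3 of the control siRNA group lay below its other libraries. HARS1 rose by 0.37 log2 units (SE 0.09, limma adjusted p = 0.0202). This call ended without RRN3 siRNA library 2 (limma adjusted p = 0.0696) or control siRNA library 3 (0.0542). HARS1 (ENSG00000170445; minus strand of chromosome 5, 140673904 to 140691862) and HARS2 run in opposite directions and share 437 exonic bases. HARS2 had 33.0, 28.5 and 25.2 TPM in RRN3 siRNA libraries and 35, 29.5 and 24.2 TPM in control siRNA libraries, with overlap. HARS1 also shares 221 exonic bases with WDR55 on the opposite strand. WDR55 averaged 31.2 TPM in RRN3 siRNA cells and 26.4 TPM in control siRNA cells, without overlap, and did not pass (limma adjusted p = 0.105). It passed as higher, the direction of HARS1, with the GC trend removed (limma adjusted p = 0.00798) or rescaling without mitochondrial and ribosomal protein genes (0.0411).

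VARS2 and MARS2 were the mitochondrial members that changed. VARS2, the mitochondrial valyl-tRNA synthetase, had 10.7, 10.2 and 12.2 TPM in RRN3 siRNA libraries, against 20.6, 21.7 and 20.6 TPM in control siRNA libraries. The RRN3 siRNA mean was 52.7% of the control mean, and the groups did not overlap (log2 change -0.87, SE 0.11, limma adjusted p = 0.00101). VARS2 (ENSG00000137411) lies on the plus strand of chromosome 6 at 30908242 to 30926459 and shares 1858 of its 8448 exonic bases with the same-strand gene GTF2H4, so their reads can be split between them. GTF2H4 averaged 49.1 TPM in RRN3 siRNA cells and 43.6 TPM in control siRNA cells and did not pass the test (limma adjusted p = 0.315).

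VARS1, the cytosolic partner on the same chromosome, lay in the opposite direction. It had 197, 195 and 204 TPM in RRN3 siRNA libraries and 149, 194 and 160.0 TPM in control siRNA libraries. The groups did not overlap, but the difference of 0.25 log2 units did not pass the test (limma adjusted p = 0.104), with control siRNA library 2 close to the RRN3 siRNA libraries. Without control siRNA library 2 the limma adjusted p was 0.0149, and with the GC trend removed it was 0.00374.

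MARS2, the mitochondrial methionyl-tRNA synthetase, whose product is the substrate of the formyltransferase MTFMT, had 15.4, 15.6 and 15.1 TPM in RRN3 siRNA libraries, against 12.6, 11.3 and 8.24 TPM in control siRNA libraries. RRN3 siRNA libraries were tightly grouped above a wider control siRNA group. MARS2 rose by 0.50 log2 units (SE 0.16), with a limma adjusted p of 0.0461 close to the threshold of 0.05. With no filter on low values this call ended (limma adjusted p = 0.0847), as it did without a variance trend (0.0502), without RRN3 siRNA library 2 (0.142) or 3 (0.0865), and without control siRNA library 2 (0.0952) or 3 (0.0975). MARS2 (ENSG00000247626) lies on the plus strand of chromosome 2 at 197705369 to 197708387. Cytosolic MARS1 had 154, 154 and 141 TPM in RRN3 siRNA libraries and 149.6, 141 and 126 TPM in control siRNA libraries, which overlapped. MARS1 shares 355 exonic bases with DDIT3 on the opposite strand. DDIT3 fell, averaging 6.73 TPM in RRN3 siRNA cells and 14.2 TPM in control siRNA cells (limma adjusted p = 0.00281).

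**Figure D3:**
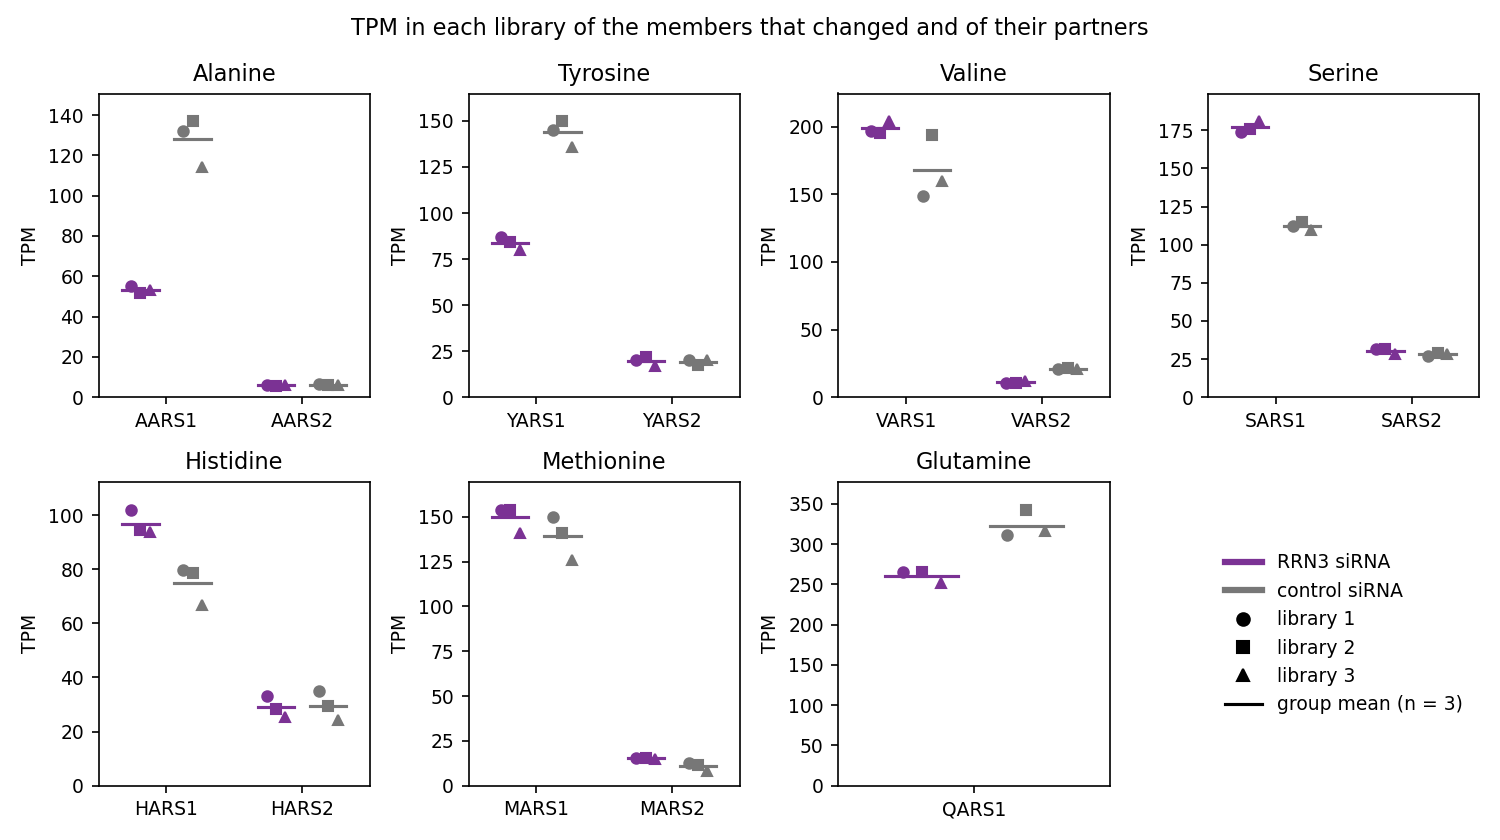
TPM in each library (y axis, linear from 0) of the 7 synthetase genes that passed the test and of their partners for the same amino acid, with RRN3 siRNA left of control siRNA, a symbol per library number and a line at the group mean (n = 3). AARS1, YARS1, VARS2 and QARS1 lie lower in all RRN3 siRNA libraries, SARS1, HARS1 and MARS2 lie higher, while AARS2, YARS2, SARS2, HARS2 and MARS1 overlap between the groups and VARS1 does not.

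The remaining cytosolic members did not pass the test, with log2 changes between -0.46 and 0.43. For some of them the interval was narrow. WARS1, the tryptophan enzyme, averaged 87.4 ± 4.31 TPM in RRN3 siRNA cells and 84.3 ± 2.97 TPM in control siRNA cells, with a 95% interval of -0.13 to 0.23 for the log2 change. GARS1 and KARS1 each supply the cytosol and mitochondria from a single gene, charging glycine and lysine tRNAs. GARS1 averaged 86.1 ± 13.7 TPM in RRN3 siRNA cells and 86.3 ± 9.95 TPM in control siRNA cells, and KARS1 127 ± 15.5 and 141 ± 17.1 TPM (SD, n = 3 each). FARSA and FARSB are the catalytic and the other subunit of a single phenylalanine enzyme. FARSA averaged 115 TPM in RRN3 siRNA cells and 127 TPM in control siRNA cells, and FARSB 17.7 and 17.2 TPM. CARS1, the cysteine enzyme, averaged 49.3 TPM in RRN3 siRNA cells and 54.3 TPM in control siRNA cells.

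For the GC-poor cytosolic members the libraries numbered 1 set the width of the spread. EPRS1, a fused glutamate and proline enzyme, had 10.5, 4.82 and 4.22 TPM in RRN3 siRNA libraries, against 10.4, 8.31 and 7.55 TPM in control siRNA libraries. Only the 2 libraries numbered 1 were alike, and EPRS1 and LARS1 both passed the test as lower in RRN3 siRNA cells once both were left out (limma adjusted p = 0.00268 for EPRS1 and 0.00598 for LARS1). Leaving out RRN3 siRNA library 1 alone had the same outcome, with limma adjusted p-values of 0.00433 for EPRS1 and 0.0121 for LARS1. RARS1, the arginine enzyme, had 63.6, 36.6 and 33.0 TPM in RRN3 siRNA libraries and 42.8, 24.9 and 28.8 TPM in control siRNA libraries, each group spreading across the other. It passed as higher in RRN3 siRNA cells with both libraries numbered 1 left out (limma adjusted p = 0.0326) and with the GC trend removed (0.0285). The 7 members called with all 6 libraries were also called without those numbered 1. IARS1, NARS1 and TARS1, which charge isoleucine, asparagine and threonine tRNAs, averaged 62.5, 35.7 and 31.4 TPM in RRN3 siRNA cells and 62.2, 25.9 and 24.4 TPM in control siRNA cells, and did not pass in either form of the fit.

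Within the multisynthetase complex QARS1 was the only enzyme called of 7 (14.3%, against 30.3% of all genes tested). The other 6, EPRS1, IARS1, LARS1, MARS1, RARS1 and KARS1, did not pass the test, and the median log2 change of the 7 was -0.15. Neither did the scaffold transcripts, of which AIMP1 averaged 16.2 TPM in RRN3 siRNA cells and 11.7 TPM in control siRNA cells, AIMP2 48.9 and 48.2 TPM, and EEF1E1 41.6 and 37.8 TPM. AIMP1 passed with median-of-ratios scaling, quantile normalization or the GC trend removed (limma adjusted p = 0.0234, 0.0238 and 0.00459). Of the 12 cytosolic members outside the complex 2 rose and 2 fell (33.3% called, close to the 30.3% of all genes tested). The 7 enzymes of the complex are too few to tell their share from it.

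The other 14 mitochondrial members had log2 changes between -0.08 and 0.21 and did not pass the test. CARS2 and PARS2, for cysteine and proline, were higher in all RRN3 siRNA libraries without passing it. CARS2 had 38.9, 37.5 and 36.4 TPM in RRN3 siRNA libraries, against 34.5, 36.3 and 29.5 TPM in control siRNA libraries (limma adjusted p = 0.257, or 0.0155 with the GC trend removed). PARS2 had 10.5, 9.86 and 9.74 TPM in RRN3 siRNA libraries and 8.99, 9.40 and 9.51 TPM in control siRNA libraries. Intervals of the log2 change were narrow enough for FARS2 (-0.32 to 0.25), TARS2 (-0.31 to 0.29) and YARS2 (-0.29 to 0.32) to leave out changes the size of that of VARS2. EARS2, for glutamate, averaged 34.6 TPM in RRN3 siRNA cells and 36.7 TPM in control siRNA cells, and LARS2, for leucine, 17.2 and 16 TPM. IARS2, RARS2 and NARS2 had higher values in library 1, averaging 29.8, 15.1 and 11.2 TPM in RRN3 siRNA cells and 30.1, 15.1 and 9.27 TPM in control siRNA cells.

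Setting each cytosolic gene against its mitochondrial partner in the same library removes what both share. Of 17 pairs, the cytosolic gene had the higher TPM in every library in 14, the exceptions being EPRS1 with EARS2, EPRS1 with PARS2, and LARS1 with LARS2. The ratio did not overlap between groups in 8 of the 17 pairs, in which EPRS1 and FARS2 are each used more than once. Single genes tested did not overlap in 44.8%, but that share is for values of 1 gene. The share for ratios of other gene pairs was not computed. VARS1 over VARS2 was 18.4, 19.1 and 16.7 in RRN3 siRNA libraries, against 7.24, 8.95 and 7.76 in control siRNA libraries. AARS1 over AARS2 was 8.94, 9.17 and 8.76 in RRN3 siRNA libraries, against 20.6, 23.2 and 19.3 in control siRNA libraries. The cytosolic share was thus higher in every RRN3 siRNA library for valine and lower in each for alanine. On the log2 scale the ratio differed by 1.12 for valine, 0.53 for serine, 0.44 for arginine and 0.39 for histidine, each higher in RRN3 siRNA cells. It was lower by -1.22 for alanine, -0.79 for tyrosine, -0.39 for methionine and -0.30 for cysteine. Each of these 8 differences had p = 0.1 in an exact two-sided permutation test, the smallest possible, and 0.213 after adjustment over the 17 pairs, so no pair could pass. In the arginine pair both partners are GC-poor, and RARS1 over RARS2 was 3.15, 2.84 and 2.68 in RRN3 siRNA libraries, against 2.36, 1.90 and 2.07 in control siRNA libraries, although neither gene passed the test alone.

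**Figure D4:**
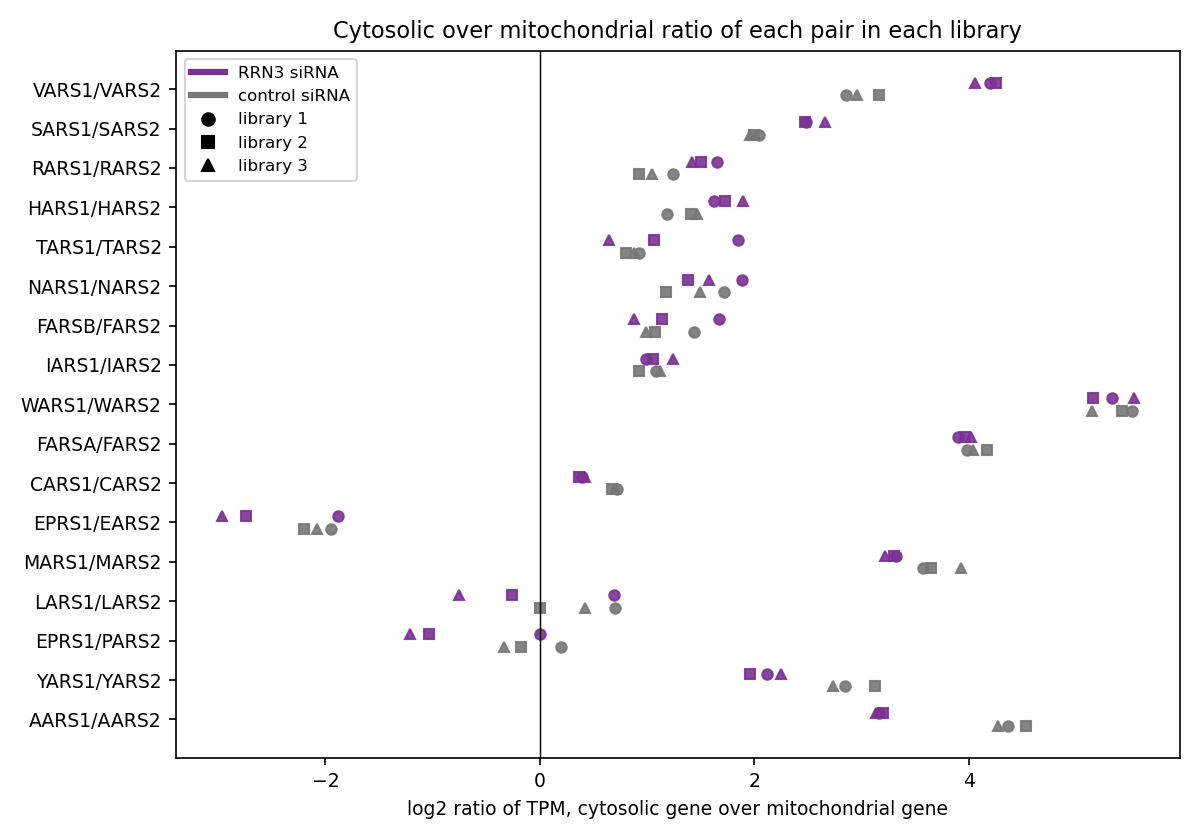
Log2 ratio of TPM of the cytosolic over the mitochondrial gene (x axis) in each library for 17 pairs, with RRN3 siRNA above control siRNA in each row and a symbol per library number. The ratio is higher in all RRN3 siRNA libraries for VARS, SARS, RARS and HARS, lower in all of them for AARS, YARS, MARS and CARS, and overlaps in the other 9 pairs.

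Other genes of the tRNA charging pathway were taken from lists drawn up from textbook knowledge, with earlier results of these data known. ATF4 itself had 249, 241 and 246 TPM in RRN3 siRNA libraries, against 381, 378 and 330.3 TPM in control siRNA libraries, and fell by 0.56 log2 units (SE 0.08, limma adjusted p = 0.00138). Among known ATF4 targets that are not synthetases, 26 of the 30 listed were tested, of which 2 rose (7.69%, against 11.2% of all genes tested) and 17 fell (65.4%, against 19%), with a median log2 change of -0.52, against -0.05 over all genes. PHGDH, the entry enzyme of serine synthesis, averaged 39.2 TPM in RRN3 siRNA cells and 154 TPM in control siRNA cells, and ASNS, the asparagine synthetase, 20.1 and 53.3 TPM (limma adjusted p = 1.53e-05 for PHGDH and 0.000839 for ASNS). CHAC1, a glutathione-degrading enzyme, averaged 3.95 TPM in RRN3 siRNA cells and 13.8 TPM in control siRNA cells (limma adjusted p = 0.000757). SESN2, a leucine-binding inhibitor of mTORC1 that p53 also activates, rose to 38.6 TPM in RRN3 siRNA cells, against 13.1 TPM in control siRNA cells (limma adjusted p = 6.73e-05). EIF2AK4, the sensor of uncharged tRNA, had 32.0, 21.5 and 17.3 TPM in RRN3 siRNA libraries and 19, 14.9 and 13.8 TPM in control siRNA libraries, with overlap. It did not pass (limma adjusted p = 0.123), but did with the GC trend removed (0.0132), with both libraries numbered 1 left out (0.0352), without RRN3 siRNA library 3 (0.0397), and with median-of-ratios scaling (0.0122) or quantile normalization (0.019).

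MTFMT, which formylates the methionine on the mitochondrial initiator tRNA, fell to 18.2 ± 1.29 TPM in RRN3 siRNA cells, against 25.2 ± 0.564 TPM in control siRNA cells (SD, n = 3 each; limma adjusted p = 0.011, or 0.0644 without RRN3 siRNA library 2). GATC, a subunit of the amidotransferase that makes mitochondrial glutaminyl-tRNA, rose to 23.5 ± 2.18 TPM in RRN3 siRNA cells, against 16 ± 1.22 TPM in control siRNA cells (limma adjusted p = 0.0109). The other subunits GATB and QRSL1 did not pass. AARSD1, which resembles the editing domain of the alanine enzyme and hydrolyses mischarged alanine tRNA, rose to 59.8 TPM in RRN3 siRNA cells, against 45.3 TPM in control siRNA cells (limma adjusted p = 0.00657, or 0.053 without RRN3 siRNA library 2). The other 3 genes of its list, DTD1, DTD2 and ANKRD16, did not pass, nor did PSTK and EEFSEC, the tested genes of selenocysteine synthesis and delivery on tRNA. Of 6 cytosolic elongation factor genes 2 fell (33.3%, against 19% of all genes tested). EEF1D, a subunit of the exchange factor that reloads the tRNA carrier, averaged 416 TPM in RRN3 siRNA cells and 807 TPM in control siRNA cells, and EEF2, the translocase, 1228 and 2138 TPM (limma adjusted p = 6.59e-05 for EEF1D and 0.000472 for EEF2). None of 4 mitochondrial elongation factor genes was called by limma, also at an unadjusted p under 0.05.

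**Figure D5:**
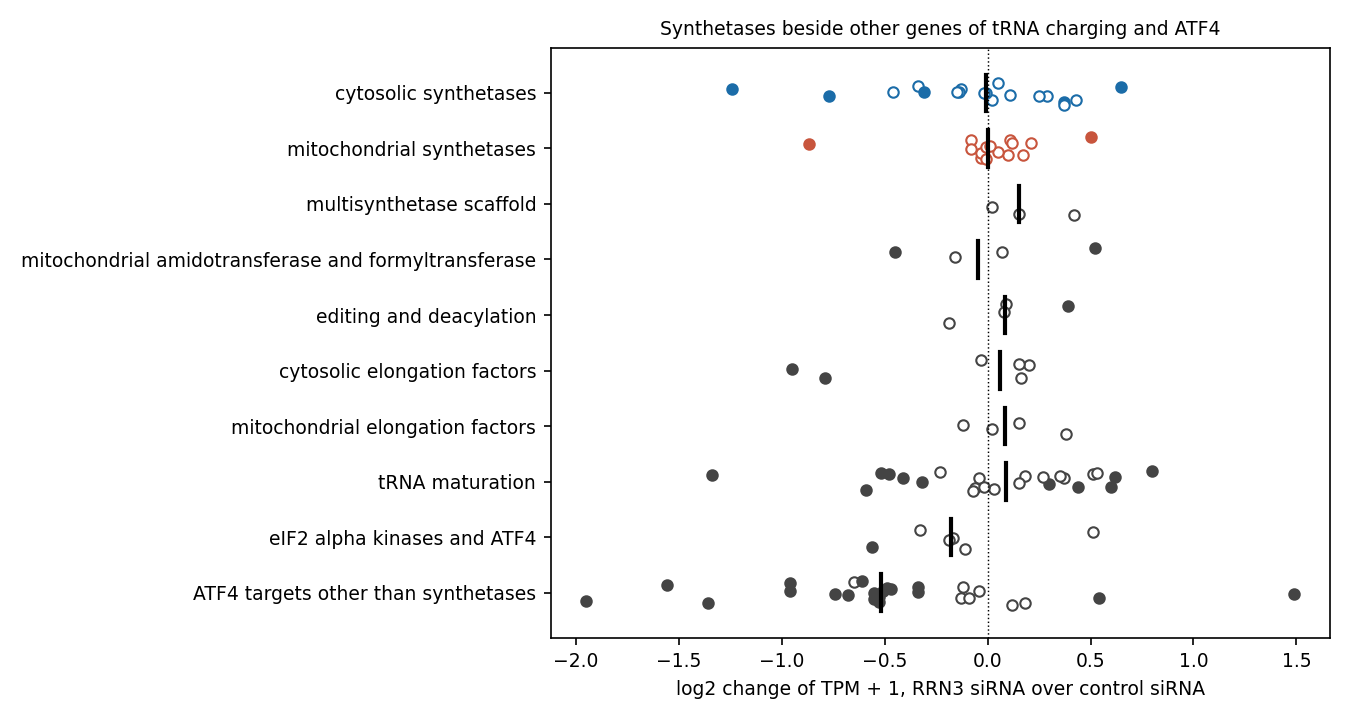
Log2 change, RRN3 siRNA over control siRNA (x axis), of every tested gene in each list, with 1 point per gene, filled where it passed the test and open where it did not, and a bar at the list median. The ATF4 targets other than synthetases spread mostly below 0 with a median of -0.52, and both synthetase sets centre near 0 with AARS1 as the lowest member.

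Promoters were searched for the C/EBP-ATF response element, the sequence bound by ATF4 with a C/EBP partner, because ATF4 fell and synthetase genes are among its known targets. RefSeq windows of 300 bases (GRCh38.p14, 250 before to 50 after each start) were matched by symbol for 30 of the 35 members, 16 cytosolic and 14 mitochondrial. The motif TGATGNAA on either strand was held by 8 members (26.7%), namely 7 cytosolic genes and the mitochondrial YARS2. Of all genes with a window 4.46% held it, and of the tested genes with a window 2.47%. Among the matched ATF4 targets other than synthetases it was held by 7 of 23. A match is a description of these letters and not a bound site. The cytosolic holders with the same core letters are printed 5′ to 3′ on the strand of the gene, with the motif in capitals, because they show how near the start site it lies and which way it faces:
AARS1: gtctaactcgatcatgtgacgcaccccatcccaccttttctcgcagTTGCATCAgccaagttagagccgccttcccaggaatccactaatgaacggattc
CARS1: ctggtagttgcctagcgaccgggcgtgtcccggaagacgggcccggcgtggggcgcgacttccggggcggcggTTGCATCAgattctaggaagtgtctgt
IARS1: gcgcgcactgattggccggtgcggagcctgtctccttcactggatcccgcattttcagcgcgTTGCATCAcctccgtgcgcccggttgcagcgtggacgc
MARS1: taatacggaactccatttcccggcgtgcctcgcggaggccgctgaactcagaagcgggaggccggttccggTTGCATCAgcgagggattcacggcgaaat
NARS1: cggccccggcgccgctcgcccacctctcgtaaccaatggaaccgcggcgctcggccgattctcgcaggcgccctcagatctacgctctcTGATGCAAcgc
TARS1: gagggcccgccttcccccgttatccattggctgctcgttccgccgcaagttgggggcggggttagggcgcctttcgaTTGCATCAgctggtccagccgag

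The stretches lie at chr16:70289640-70289739 (minus strand) for AARS1, chr11:3057399-3057498 (minus) for CARS1, chr9:92293673-92293772 (minus) for IARS1, chr12:57487993-57488092 (plus) for MARS1, chr18:57621812-57621911 (minus) for NARS1 and chr5:33440890-33440989 (plus) for TARS1. In 5 of the 6 the motif reads TTGCATCA on the gene's strand, and in NARS1 it reads TGATGCAA. It starts 187 bases before the RefSeq start site in AARS1, 13 before it in IARS1, 4 in MARS1 and 2 in CARS1, and 15 bases after it in NARS1 and 3 in TARS1. GARS1 holds the variant TTTCATCA 33 bases before its start, and YARS2 holds TGATGGAA 197 bases before. Of these 8 genes AARS1 fell and the other 7 did not pass the test, among them MARS1 and GARS1, with log2 changes of 0.11 and -0.01. Of all genes tested 30.3% were called and 19% fell, and 8 genes are too few to tell their share from these. YARS1 and VARS2 had no window.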

How the data were processed

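RNA sequencing covered 6 libraries of HCT116 cells, 3 with RRN3 siRNA and 3 with control siRNA. The deposited table holds the authors' TPM for each gene symbol in each library. STAR, Salmon and GRCh38 are named in the submitters' processing notes, with no role or version, and annotation, strand setting and filters do not appear in the sources used here. Per the labels' protocols the molecule was poly(A) RNA, yet Ribo-Zero depletion was also used, and which of them decided the RNA captured is not stated. TPM keeps no depth, so no count test or counting interval was used.

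Values were analysed as log2(TPM + 1), a scale on which changes of low genes are understated. Genes whose TPM averaged 1 or more were tested with limma 3.58.1 in R 4.3.3, with group alone in the model and eBayes with an intensity trend. Benjamini-Hochberg adjustment of p-values ran over 12157 genes, with a threshold of 0.05, and rose, fell and changed are used only of genes past it. The intervals are the 95% intervals of this fit. Ratios of partner genes were tested with exact two-sided permutation tests over libraries on log2(TPM + 1). The fit was tested on simulated data with known changes in 200 genes and independent noise for each gene. Deviations that many genes of a library share, as in the libraries numbered 1, were not simulated.

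Gene positions, exon overlaps and GC content came from GENCODE release 29 on GRCh38, which covered 99.89% of tested genes with a GC value. Loess removed GC trends with a span of 0.3. Promoter windows were from RefSeq. Tables were handled with Python 3.11.15 and pandas 2.3.3.

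The members, lists, tests and alternatives were chosen with earlier results of these data known. Genes named were RRN3, all 35 members, and from each list up to 4 called genes with the smallest adjusted p. Genes named outside that rule are those given as not passing or not tested (AIMP1, AIMP2, EEF1E1, EIF2AK4, GATB, QRSL1, DTD1, DTD2, ANKRD16, PSTK, EEFSEC and cell type markers such as EPCAM, CDH1 and CD3E) and the overlapping neighbours. Alternatives were other pseudocounts (0.1 and 0.5), no filter or a mean TPM of at least 5, GC trend removal, scaling by median of ratios or by quantiles, TPM recomputed after dropping MT- genes and cytosolic ribosomal protein genes, no variance trend, a replicate block, leaving out each library, and leaving out both libraries numbered 1.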

Additional observations from a re-analysis of the deposited data

How the results depend on the processing

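AARS1, YARS1, SARS1, VARS2 and RRN3 passed the test in the same direction in all 17 alternative settings, and no member past the threshold changed direction in any of them. Over all genes, 1367 rose and 2312 fell. The number that rose was 2205 with quantile normalization and 2705 with the GC trend removed, where 7 members rose against 3. Leaving out 1 library at a time gave 788 to 1273 risen and 1452 to 3000 fallen genes, the lowest of both without RRN3 siRNA library 2, and 893 risen without control siRNA library 3. For the members it gave 1 to 3 risen, with 1 without RRN3 siRNA library 2 or control siRNA library 3, and 3 to 6 fallen, with 6 without RRN3 siRNA library 1. Pairs whose ratio was lower without overlap were 4 to 7, with 7 without RRN3 siRNA library 1, and pairs higher were 4 to 5. No scaling moved the median of all genes by more than 0.1 log2 units, and WARS2 had no value at a mean TPM of at least 5.

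A replicate block gave 2295 risen and 3251 fallen genes, and 6 risen and 5 fallen members, EPRS1 (limma adjusted p = 0.0452), RARS1 (0.00589), NARS1 (0.0379) and VARS1 (0.0361) being added to those of the fit without it. Among other genes named, EIF2AK4 (limma adjusted p = 0.00417), AIMP1 (0.0241), S100PBP (0.0241) and WDR55 (0.0492) also passed with the block. Deviations of same-numbered libraries from their group means correlated at 0.4194, 0.0954 and 0.1592 across genes, and not every library correlated best with its own number, so the numbers were not taken to pair the libraries.

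Log2 changes that switched sign belonged to genes that did not pass the test. With median-of-ratios scaling they were 0.07 for GARS1, 0.05 for IARS1 and HARS2, 0.04 for AARS2, 0.03 for FARS2, and 0.06 for RARS2 and TARS2. With quantile normalization they were 0.03 for GARS1 and IARS1, 0.07 for AARS2, 0.05 for FARS2, RARS2 and TARS2, and 0.02 for HARS2. Rescaling without mitochondrial and ribosomal protein genes gave 0.03 for GARS1, 0.01 for IARS1 and HARS2, 0.00 for AARS2, and 0.02 for RARS2 and TARS2. Removal of the GC trend gave 0.01 for FARSA and FARS2, 0.13 for AARS2, 0.00 for RARS2 and 0.07 for TARS2. With both libraries numbered 1 left out they were -0.06 for FARSB, 0.00 for HARS2, 0.09 for TARS2 and -0.00 for WARS2. Across fits without 1 library, the range was -0.16 to 0.16 for FARSB, -0.01 to 0.62 for NARS1, -0.03 to 0.53 for TARS1, -0.03 to 0.43 for NARS2, -0.06 to 0.11 for YARS2, -0.12 to 0.10 for GARS1, -0.28 to 0.14 for IARS1, -0.05 to 0.01 for AARS2, -0.23 to 0.12 for RARS2, -0.03 to 0.14 for WARS2, -0.16 to 0.10 for HARS2, -0.38 to 0.16 for IARS2, -0.11 to 0.08 for TARS2, -0.01 to 0.21 for LARS2 and -0.03 to 0.07 for AIMP2. The cause of these differences was not tested. Depth is unknown, so what it limits cannot be stated.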

Other observations

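Of 24 tested genes of tRNA maturation, which make tRNAs ready for charging, 5 rose (20.8%, against 11.2% of all genes tested) and 6 fell (25.0%, against 19%) in RRN3 siRNA cells. RPP25, a protein of the RNase P and RNase MRP complexes that trim tRNA and ribosomal RNA precursors, had 3.14, 3.16 and 3.21 TPM in RRN3 siRNA libraries, against 8.54, 10.3 and 9.89 TPM in control siRNA libraries (log2 change -1.34, limma adjusted p = 0.000367). POP7, which pairs with it in those complexes, averaged 55.4 ± 0.867 TPM in RRN3 siRNA cells and 83.8 ± 2.29 TPM in control siRNA cells (limma adjusted p = 0.000838). HSD17B10, a subunit of the mitochondrial RNase P, rose to 145 ± 10.6 TPM in RRN3 siRNA cells, against 95.4 ± 7.18 TPM in control siRNA cells (limma adjusted p = 0.002). TSEN54, of the endonuclease that removes tRNA introns, fell to 40.9 TPM in RRN3 siRNA cells, against 54.6 TPM in control siRNA cells (limma adjusted p = 0.00749, or 0.0686 with median-of-ratios scaling and 0.0521 without RRN3 siRNA library 2).

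The mitochondrial tRNAs that the mitochondrial enzymes charge are listed in the table as genes of their own. Their summed TPM was 12297, 15030.1 and 15306 in RRN3 siRNA libraries, against 9649, 8925 and 11402 in control siRNA libraries, without overlap. MT-TA, the alanine tRNA, made up the largest share in all 6 libraries and averaged 8193 TPM in RRN3 siRNA cells and 4985 TPM in control siRNA cells (limma adjusted p = 0.00179). Of 21 tested 3 rose (14.3%, against 11.2% of all genes tested) and none fell at the threshold. How these short RNAs were captured was not tested, and reads of longer mitochondrial precursors cannot be told apart from those of the tRNAs. MT-TT and MT-TY, which also rose, were no longer called in 4 and 7 of 17 alternative settings.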
